A study of Mus musculus with 40 samples.

Results

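The baseline of this study was the cortex of mice that received saline and sham handling. These were 10 libraries, labelled ShamSaline 1 to 10, of 40 in the whole series, and they were chosen by their treatment label and not by any measured value. The animals were male mice with no engineered allele, 12 weeks old, labelled C57BL/6 and named C57Bl/6J in the study's methods. Saline was injected 1 h before each sham session, in which the mice were anaesthetised with isoflurane and handled like impacted mice but not struck, and cortex was taken 24 h after the last session. Repeated injection, isoflurane and handling were therefore part of this baseline. The other 3 groups of 10, used here only to show where saline sham differed, were saline with high-frequency head impact (HF-HI), memantine with sham, and memantine with HF-HI. Memantine is a blocker of NMDA-type glutamate receptors, and all 4 groups shared strain, sex, age, anaesthesia and time of sampling. The question was which genes dominated the RNA of this cortex, which differed most and least from mouse to mouse, and which moved together across the 10 mice.

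Cortex is a mixture of glutamatergic and GABAergic neurons, astrocytes, oligodendrocytes, microglia and vessels, and its RNA pool is known for synaptic, metabolic and nuclear non-coding transcripts. Differences between mice of an inbred strain can follow neuronal activity, hour of the day, stress hormones or the exact piece of tissue taken. Immediate early genes respond within minutes to neuronal firing, clock genes cycle over the day, and dissection can carry along white matter, striatum, thalamus or choroid plexus. Because bulk tissue was sequenced, fewer cells of a type and less RNA per cell cannot be told apart in any result below.

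The table analysed held 6831 RefSeq transcripts, which were summed to 5873 genes. The summed counts of the saline sham libraries ran from 13352944 to 17411169, with a median of 15303358, against 13322404 to 17529644 over all 40 libraries. Normalised read counts are counts divided by the library's size factor. The Pearson correlation of log2 counts between saline sham libraries, taken across genes, was between 0.924 and 0.967. The median squared difference between any 2 libraries was at least 4.97 times that of counting error alone, so none was a copy of another. The labels give a number per library and name no sequencing batch. The lowest mean count of a gene was 449.0, so genes of low abundance were not analysed here.

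Per kilobase of transcript, the 2 highest genes of the baseline cortex were short structural RNAs. Levels of different genes were compared as normalised counts per kilobase over the 5860 genes with a known length, so the 13 genes without one, the transcript NR_046233 among them, were not ranked. Division by length decided much of this order, since 7 of the 20 highest genes remained among the 20 highest without it. Rpph1, the RNA component of RNase P that trims transfer RNA, had 141701 ± 13871 normalised counts per kilobase (SD, n = 10). Rmrp, the RNA of the related RNase MRP, had 85289 ± 7578. Malat1, a long non-coding RNA retained in the nucleus, had 69206 ± 3311, and it had the highest count before division by length, at 483266. Rnu12, an RNA of the minor spliceosome, had 26337 ± 3129. The other RNA genes among the 20 highest were the long non-coding RNA Meg3, with 13906 ± 1641 normalised counts per kilobase, and the small nucleolar RNA Snora74a, with 12276 ± 336.

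The remaining 14 of the 20 were protein-coding. Snap25, a SNARE protein that drives fusion of synaptic vesicles, was the highest of them, with 18743 ± 1182 normalised counts per kilobase. Calm2, which encodes the calcium sensor calmodulin, had 18125 ± 1243. Ppp3ca, the catalytic subunit of the calcium-activated phosphatase calcineurin, had 11821 ± 746, and Prkcb, a protein kinase C, had 10234 ± 627. General cell functions were represented by the translation factor Eef1a1 at 16836 ± 718, the chaperone Hspa8 at 14060 ± 952 and the glycolytic enzyme Aldoa at 13919 ± 935. Actb, which encodes cytoskeletal actin, had 12330 ± 438, and Ckb, brain creatine kinase, had 10024 ± 679. Cpe, which processes neuropeptides, had 11831 ± 352. Glial genes were Mbp, the myelin basic protein, at 11900 ± 1290 and the astrocyte gene Sparcl1 at 11432 ± 520. Fth1, the heavy chain of the iron store ferritin, had 10046 ± 933.

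The order was firm only at its head. The values of the 10 libraries did not overlap between Rpph1 and Rmrp, between Malat1 and Rnu12, or between Rnu12 and Snap25. The other 16 of the 19 neighbouring pairs overlapped, so their order was within the spread between mice. The first gene had 14.1 times the level of the twentieth, and of the ranked genes only these 20 exceeded 10000 normalised counts per kilobase. The median gene had 388 normalised counts per kilobase, with 155 at the tenth percentile and 1474 at the ninetieth. Before division by length, 25 genes held 10% of all counts, and 779 genes, or 13.3%, held 50%.

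**Figure D1:**
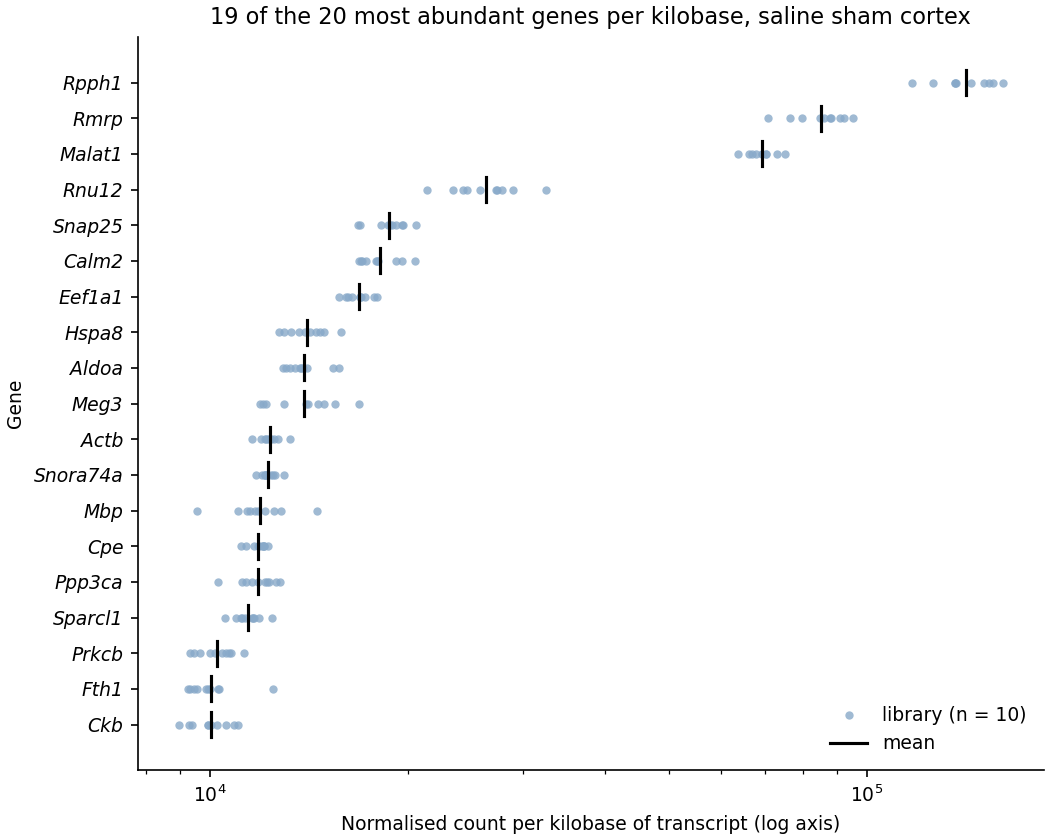
Normalised counts per kilobase (log axis) of 19 of the 20 most abundant genes of saline sham cortex, with 1 point per library (n = 10) and a bar at the mean. Rpph1 (141701) lies apart from Rmrp (85289), whose points overlap those of Malat1. From Snap25 (18743) down to Ckb (10024) the points of neighbouring genes overlap.

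The cell types expected of cortex were well represented. All 25 listed presynaptic genes were analysed, at a median of 1555 normalised counts per kilobase, led by Snap25, Syt1 (6391), the calcium sensor of vesicle release, and Syp (4159). Of 27 genes of the glutamatergic postsynapse 26 were analysed, at a median of 1435, led by Ppp3ca and Camk2a (5497), a kinase of synaptic plasticity. Astrocyte genes, 22 of 23, had a median of 1749. Behind Sparcl1 they were led by the lipid carrier Apoe (9523), glutamine synthetase Glul (9105) and the glutamate transporter Slc1a2 (8459). Myelin genes, 14 of 20, had a median of 848, among them Mbp, transferrin Trf (2051) and Cnp (1898), a phosphodiesterase of myelin. Interneuron genes, 10 of 16, had a median of 844, led by the neuropeptide Cck (2545) and Gad1 (2210), which makes GABA. Microglial genes, 7 of 18, had a median of 540 and reached 872 for Lgmn. Genes of endothelium and mural cells, 8 of 22, had a median of 338, led by Bsg (2657). All of these medians but the last were above the median over all genes of 388.

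The layers of cortex were both seen. Upper-layer genes, 11 of 12, had a median of 301 normalised counts per kilobase, led by Mef2c (1063), a transcription factor of excitatory neurons, and Lamp5 (1004). Deep-layer genes, 6 of 16, had a median of 345, led by Pcp4 (5212), with Tbr1 (366), a transcription factor of layer 6. Among neighbouring tissues, 19 of 25 striatal genes were analysed at a median of 1029. They included Arpp21 (3204), the opioid precursor Penk (2554), Pde10a (2178) and Ppp1r1b (1710), the DARPP-32 phosphatase inhibitor of dopamine-receptive neurons. Several of these are also expressed in cortex. Of 12 thalamic genes 4 were analysed, at 154 to 758. Of 9 hippocampal genes only Wfs1 (291) was analysed, of 11 meningeal genes only Ptgds (5886), and of 6 blood genes none, so blood was not checked.

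The machinery of translation and respiration was abundant. The 77 cytosolic ribosomal protein genes had a median of 2409 normalised counts per kilobase, led by Rps24 (7351) and Rps29 (7328). The 67 genes of oxidative phosphorylation had a median of 1447, led by the ATP synthase subunit Atp5b (7682). Chaperones, 20 of 24, had a median of 1071, and genes of cholesterol synthesis, 16 of 21, had a median of 374, led by the desaturase Scd2 (4806) and by Hmgcs1 (1517). Long non-coding RNAs, 8 of 10, had a median of 1376. Among regulated genes, the immediate early genes were below the median over all genes of 388, and the other 2 lists were near it. Immediate early genes, 13 of 25, had a median of 343, led by the scaffold Homer1 (2153). Clock genes, 19 of 22, had a median of 388, led by Tef (1511) and Rora (1336), and glucocorticoid-responsive genes, 7 of 9, had a median of 389, led by Sgk1 and Tsc22d3.

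The mice were closely alike for most genes. Variability between mice was measured as the coefficient of variation (CV), the SD divided by the mean of normalised counts, in the 2937 genes with the higher mean counts. The median CV was 5.62%, where counting error alone would give 1.96%. A CV under 5% was found in 1161 genes (39.5%), and a CV over 20% in 94 genes (3.20%). The other groups were similar, with a median CV of 5.50% and 96 genes over 20% in saline HF-HI, 5.51% and 84 genes in memantine sham, and 5.30% and 91 genes in memantine HF-HI. Among lists with at least 7 analysed genes, ribosomal protein genes (5.1%), long non-coding RNAs (5.2%), astrocyte genes (6.0%) and oxidative phosphorylation (6.1%) had the lowest median CVs. Median CVs were highest for glucocorticoid-responsive genes (20.1%), striatal genes (14.1%), immediate early genes (14.0%), upper-layer genes (13.0%), clock genes (11.1%) and myelin genes (10.96%), against 6.62% over all genes. Shorter lists were the deep-layer genes (14.5% over 6 genes), the thalamic genes (38.2% over 4) and the choroid plexus genes (102% over 2).

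**Figure D2:**
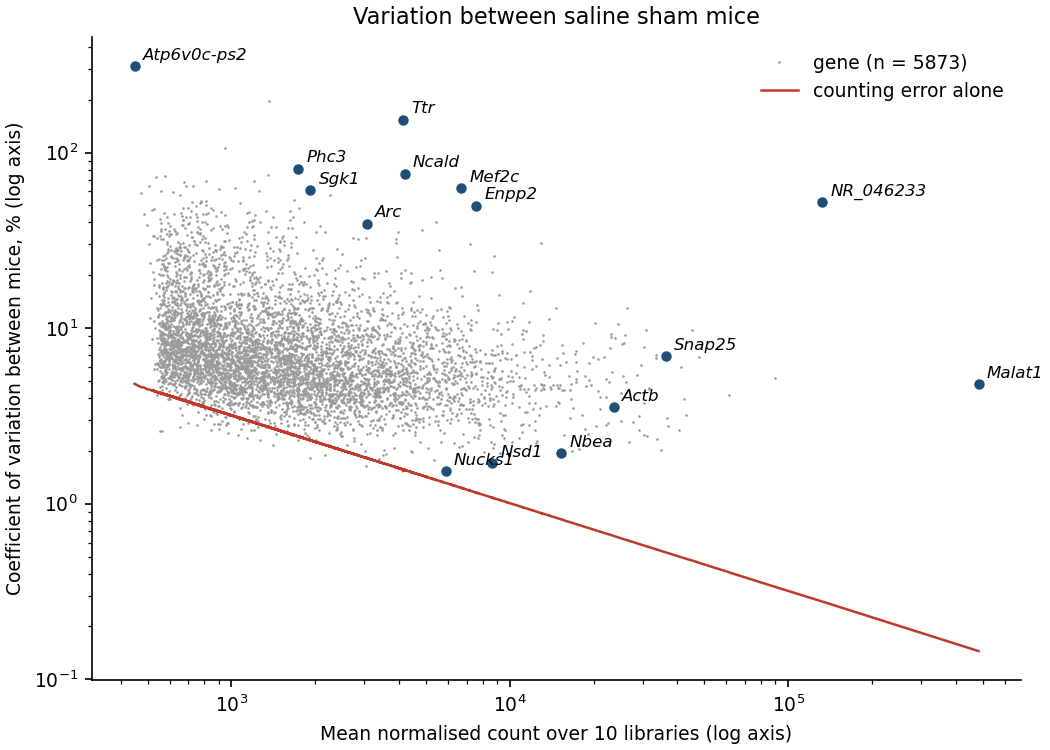
Coefficient of variation between the 10 saline sham mice (percent, log axis) against mean normalised count (log axis), with 1 point for each of 5873 genes, some genes named and a line at the counting error. The median over all genes is 6.62%, Ttr lies far above it at 153.7%, the pseudogene Atp6v0c-ps2 at 311% has the lowest mean count, and Nucks1 lies at 1.5%.

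The most variable of the 2937 genes was Ttr, and it was high in 3 mice. Ttr (chr18:20664209-20674326, GRCm38) encodes transthyretin, the thyroid hormone carrier made in the brain by the choroid plexus. Its normalised counts were 15798, 12418 and 11476 in libraries 3, 7 and 9, and between 74.5 and 429 in the other 7, a CV of 153.7%. Enpp2 (autotaxin), the other choroid plexus gene of 8 listed that was analysed, was high in the same 3 libraries, at 14884, 11976 and 11721, against 4841 to 5944 in the other 7. The ranges of the 3 and the 7 libraries did not overlap for either gene. The CV of Ttr was 124% in memantine sham, 142% in saline HF-HI and 131% where HF-HI followed memantine, so libraries with high Ttr were not particular to saline sham.

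Several other variable genes also had separate high and low sets of libraries, in partly different mice. Mef2c was at 12367, 12606 and 13121 normalised counts in libraries 3, 5 and 7 and at 3619 to 4416 in the other 7. Ncald, a neuronal calcium sensor, was at 9724, 8752 and 7745 in libraries 4, 5 and 7 and at 1837 to 2521 in the others. Phc3, a Polycomb group protein (chr3:30899295-30969479), was under 300 in libraries 3, 5, 8 and 10, at 19.5, 279, 110 and 88.1, and between 2278 and 3063 in the other 6. No intermediate values were seen for these genes.

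Some genes were listed at 0 in libraries where depth was not the limit. Eif4e, the cap-binding translation factor that every cell uses, was listed at 0 in libraries 7 and 8 and at 1920 to 2299 in the other 8. Dnmt3a, a DNA methyltransferase, was listed at 0 in library 3, at 722 and 690 in libraries 9 and 10, and at 2275 to 3382 in the other 7. Kctd12, an auxiliary subunit of GABA-B receptors, was listed at 0 in library 6 and at 1293 to 1879 elsewhere. Rbfox3, which encodes the neuronal marker NeuN, fell to 198 and 264 in libraries 3 and 6, against 1668 to 2226 in the other 8. In all, 14 genes were listed at 0 in at least 1 saline sham library and 29 were under 100, 19 of them in a single library. Each library had between 3 and 9 genes under 100. For 24 of these 29 genes (82.8%) RefSeq has a further curated transcript that was not analysed here, against 46.2% of all genes. Reads moved between transcripts of a gene cannot be told apart here from a change of the gene.

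The other genes among the 20 most variable were of mixed function. They were the cytoskeletal protein Dmtn (CV 48.4%), the translational regulator Cpeb3 (43.1%), the calcium channel subunit Cacna1c (37.9%), the phosphodiesterase Pde7b (37.0%), Npcd (42.8%), Zdbf2 (41.4%), Ndst1 (40.4%) and Abi2 (40.3%). A transcript with no paired symbol, NR_046233, had 242349 and 274039 normalised counts in libraries 6 and 9 and 80501 to 147636 in the others. The activity-regulated genes Sgk1 (61.2%) and Arc (39.3%) completed the set and are described below. Of the 20 genes 14 had a curated transcript that was not analysed here, and 5 were under 100 in a library. The CV of the gene in place 20 was 36.98% and that of the next gene 36.94%. Of these 20 genes, the memantine sham libraries also had 17 with a CV over 20%, and each HF-HI group had 16.

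**Figure D3:**
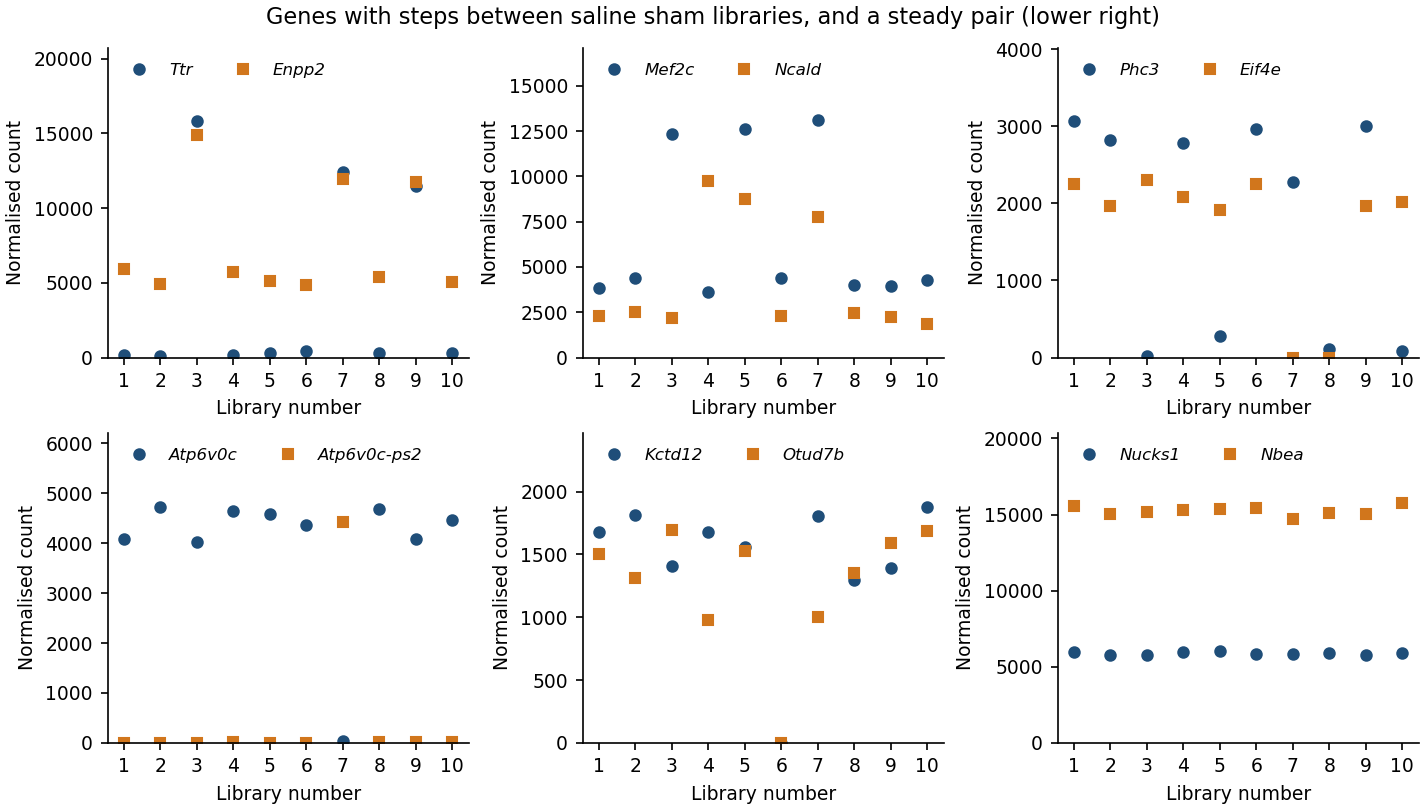
Normalised counts by library number in the 10 saline sham mice, in 6 panels with a pair of genes each. Ttr and Enpp2 were high in libraries 3, 7 and 9, while Mef2c, Ncald, Phc3 and Eif4e stepped between separate levels in partly different libraries, Atp6v0c and Atp6v0c-ps2 exchanged levels in library 7, Kctd12 and Otud7b were listed at 0 in library 6, and Nucks1 and Nbea stayed nearly level.

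Near-identical sequence accompanied an exchange of counts in library 7. Atp6v0c (chr17:24163865-24169678), a proton-channel subunit of the vacuolar ATPase, had 38.6 normalised counts in library 7 and 4030 to 4730 in the other 9. Its pseudogene Atp6v0c-ps2 (chr6:37805975-37807107) had 4422 in library 7 and 4.32 to 13.0 in the others. The sum of both ran from 4037 to 4735, a CV of 6.0%, so library 7 did not stand apart once they were added. The transcripts were compared because reads of 100 bases could come from either. Over the 465 aligned bases they differed at 1 base (99.8% identity), and 266 of the 366 windows of 100 bases in the pseudogene were also in Atp6v0c. The aligned stretch was the whole pseudogene transcript but only a part of Atp6v0c-201, which has 1183 bases. The start of the aligned stretch is shown from the GENCODE transcripts of GRCm38, positions 178 to 297 of Atp6v0c-201 and 1 to 120 of Atp6v0c-ps2-201, with the mismatched base in capitals.
Atp6v0c-201: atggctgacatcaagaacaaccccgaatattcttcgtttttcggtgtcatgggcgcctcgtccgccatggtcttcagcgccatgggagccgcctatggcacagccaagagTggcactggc
Atp6v0c-ps2-201: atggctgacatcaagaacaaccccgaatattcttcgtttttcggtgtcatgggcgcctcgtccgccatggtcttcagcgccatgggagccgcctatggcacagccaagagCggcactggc

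The least variable genes had mixed functions. Nucks1, a nuclear DNA-binding protein, was between 5763 and 6010 normalised counts in all 10 libraries, a CV of 1.5%. Nbea (neurobeachin), a scaffold of synaptic membrane traffic, was between 14739 and 15787, a CV of 1.9%. Nsd1, a histone methyltransferase, was between 8463 and 8918. The other 7 of the 10 were Glyr1, Brwd1, Mia3, Tmem181a, Vps26b, Wdr26 and Gmfb, with CVs of 1.6% to 1.9%. Of the 2937 genes 8 varied no more than counting error gives, so at this depth these genes could not be ranked further. Of the 10 least variable genes, 9 were also under 5% in each of the other 3 groups, while 1224, 1202 and 1327 of the 2937 genes were under 5% there.

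Several stress- and activity-related genes separated the libraries by their number. Sgk1 (chr10:21882184-21999903), a kinase induced by glucocorticoids, had 946, 347, 816, 1286 and 875 normalised counts in libraries 1 to 5 and 2720, 3476, 2488, 3199 and 3051 in libraries 6 to 10. Arc, an immediate early gene of synaptic plasticity, had 1874, 2005, 1934, 2239 and 2211 in libraries 1 to 5 and 4366, 4537, 4522, 4362 and 2623 in libraries 6 to 10. Neither gene overlapped between the 2 sets of libraries. This was noticed after the values were seen, the labels name nothing that changes between numbers 5 and 6, and no test was run. What differed between these libraries was not tested, and mouse, cage, hour and pool cannot be told apart.

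The higher genes in libraries 6 to 10 included members of several known responses. The immediate early transcription factors Junb (267 to 447 against 525 to 828 normalised counts) and Nr4a1 (439 to 641 against 668 to 1054) were higher in libraries 6 to 10 without overlap. So were Tsc22d3 (823 to 1394 against 1795 to 2099), which encodes the glucocorticoid-induced protein GILZ, and the clock gene Per2 (970 to 1024 against 1235 to 1624). Tiparp, a poly-ADP-ribose polymerase (403 to 482 against 701 to 838), Polr3e, a subunit of RNA polymerase III (659 to 770 against 941 to 1078), and Errfi1, an inhibitor of EGF receptor signalling (476 to 551 against 617 to 778), were also higher without overlap. Lower in libraries 6 to 10 were Rasgef1b, an exchange factor for Ras-like proteins (1597 to 1853 against 1119 to 1269), and the microglial receptor Cx3cr1 (651 to 782 against 499 to 607).

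Most members of the same lists overlapped. Of 5807 genes with at least 100 normalised counts in every library of the series, 144 did not overlap between the 2 sets in saline sham (2.48%), 83 higher and 61 lower in libraries 6 to 10. Of 13 immediate early genes 3 were higher without overlap (Arc, Junb, Nr4a1), and of 19 clock genes 2 (Per2, Bhlhe41). Of 7 glucocorticoid-responsive genes 3 were higher without overlap (Sgk1, Tsc22d3, Errfi1). The division was made after values of Sgk1 and Arc were seen, so the counts that include them are not independent of it. The median log2 ratio of libraries 6 to 10 over 1 to 5 was 0.44 for the glucocorticoid-responsive genes, 0.07 for the clock genes and -0.0036 for the immediate early genes, against -0.0007 over all genes. The glucocorticoid receptor itself, Nr3c1, was between 3464 and 4000 in all 10 libraries. Of the other lists, 1 of 26 genes of the glutamatergic postsynapse, 1 of 20 chaperones and 1 of 7 microglial genes were lower without overlap, and of 8 genes of endothelium and mural cells 1 was higher and 1 lower. The remaining lists had 0, which at a share of 2.48% over all genes says little about most of them.

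The same division of numbers in the other groups gave fewer genes. Because the division was chosen after saline sham values were seen, this comparison favoured saline sham in advance. The division gave 66 genes in memantine sham (1.14%), 45 in saline HF-HI (0.775%) and 33 where HF-HI followed memantine (0.568%). Of the 66 in memantine sham, 12 were among the 83 higher genes of saline sham, 3 among the 61 lower, and none was opposite. Of the 45 in saline HF-HI, 1 was shared, and in memantine HF-HI none. Sgk1 in memantine sham ran from 490 to 1485 in libraries 1 to 5 and from 2483 to 2891 in libraries 6 to 10. In saline HF-HI Sgk1 was 373 in library 1 and 1823 to 3172 in the other 9, and Arc was 1704 in library 1 and 4728 to 6289 in the other 9. In memantine HF-HI Arc was 1540 in library 1 and 3341 to 4677 in the others. Low values were thus seen in libraries 1 to 5 of both sham groups and, for these 2 genes, in library 1 of both HF-HI groups.

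**Figure D4:**
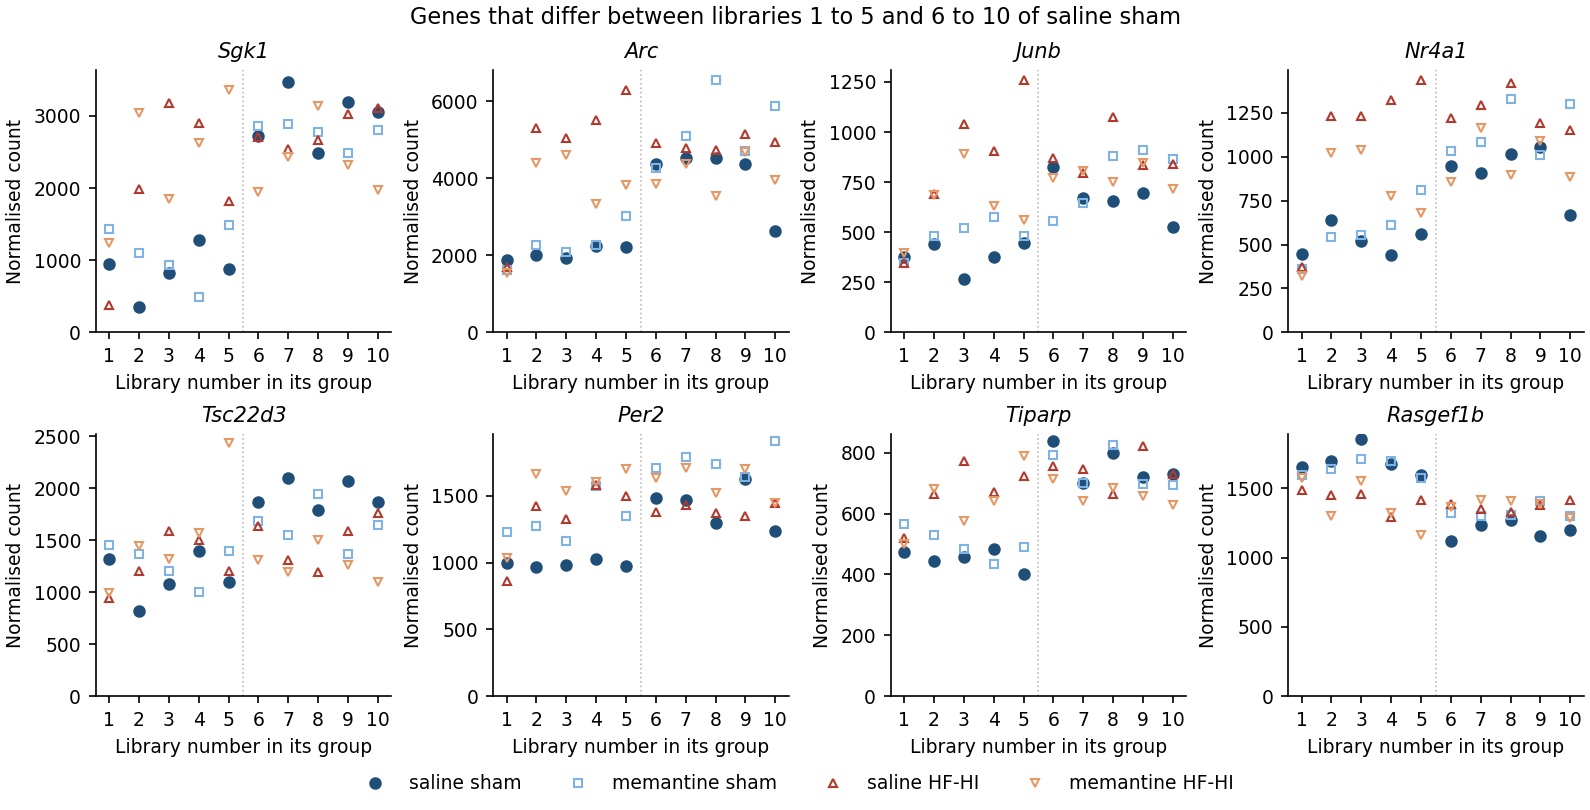
Normalised counts of 8 genes (Sgk1, Arc, Junb, Nr4a1, Tsc22d3, Per2, Tiparp and Rasgef1b) against library number in the 4 groups, with 1 point per library. In saline sham, Sgk1 lies at 347 to 1286 in libraries 1 to 5 and at 2488 to 3476 in libraries 6 to 10, and memantine sham shows a similar step while both HF-HI groups are low mainly in library 1.

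Promoters of these genes were read for motifs of the factors that act in such responses. The motifs were the core of the cAMP response element (TGACG, or CGTCA on the other strand), which CREB binds, the whole element (TGACGTCA, which contains the core), the E-box of clock factors (CACGTG) and TGTTCT, a part of the glucocorticoid response element. The windows were 300 bases of RefSeq, build GRCm38.p6, from 250 bases before to 50 after a start site, and both strands were read. The core was in 31 of 98 promoters (31.6%) of the higher genes, of which 73 of 83 had an entry, and in 12 of 63 (19.05%) of the lower genes, of which 46 of 61 had an entry. It was in 32.6% of the 6120 promoters of analysed genes and in 20.8% of all 32851. TGTTCT was in 11.2% of promoters of higher genes and 4.76% of lower genes, against 11.4% of analysed genes. The E-box was in 13.3% and 6.35%, against 9.97%, and the whole element in 5.10% and 4.76%, against 3.27%. Shares of the higher genes were thus near the background for the core and for TGTTCT. The promoters of Nr4a1, with 4 matches to the core, and Junb, with 1, are shown because both are immediate early genes that separated the libraries, and capitals mark the matches.
Nr4a1, chr15:101266596-101266895, plus strand: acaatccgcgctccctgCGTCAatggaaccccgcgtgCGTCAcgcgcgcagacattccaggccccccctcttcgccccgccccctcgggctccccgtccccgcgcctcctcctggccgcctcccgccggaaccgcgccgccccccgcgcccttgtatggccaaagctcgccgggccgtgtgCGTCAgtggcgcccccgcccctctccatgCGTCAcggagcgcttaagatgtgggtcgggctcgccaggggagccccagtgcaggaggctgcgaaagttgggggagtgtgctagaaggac
Junb, chr8:84978699-84978998, minus strand: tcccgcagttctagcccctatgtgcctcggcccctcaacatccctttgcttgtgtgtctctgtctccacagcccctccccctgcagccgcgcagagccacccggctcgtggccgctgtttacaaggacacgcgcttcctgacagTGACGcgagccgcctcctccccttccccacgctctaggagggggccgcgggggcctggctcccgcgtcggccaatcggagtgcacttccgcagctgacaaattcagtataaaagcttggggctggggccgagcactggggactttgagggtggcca

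Genes that varied together were sought with 12 anchor genes, each a marker of a cell type or process. For every other gene the slope is its log2 change per log2 unit of the anchor across the 10 mice, tested with limma (two-sided) over 5872 genes with a threshold of 0.1 on the p-value after Benjamini-Hochberg adjustment. The number of genes called was 4 for Junb (0.0681%), 3 for Ppp1r1b (0.0511%), 4 for Gad1 (0.0681%), 2 for Hspa5 (0.0341%), 2 for Hmgcs1 (0.0341%), 1 for Gfap (0.017%), 1 for Cux2 (0.017%) and 0 (0%) for Dbp, Csf1r, Flt1 and Rps16. Between 132 and 868 genes per anchor had an unadjusted p-value under 0.05, and for these 4 anchors with no call the numbers were 534, 462, 533 and 210. The separate labelled mice were the replicates. The slopes are descriptions of shared variation in tissue and carry no direction of effect.

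Striatal genes varied together most clearly. With Ppp1r1b, the DARPP-32 gene, 3 genes were called. Ppp1r1b had 2724 and 2351 normalised counts in libraries 1 and 8 and 3221 to 4003 in the other 8. Rgs9, a regulator of dopamine receptor signalling, had 3009 and 2590 in libraries 1 and 8 and 3360 to 4304 in the others, a slope of 0.86 ± 0.11 (SE, limma adjusted p = 0.033). Penk, the enkephalin precursor, had 2898 and 2523 there and 3135 to 4419 in the others, a slope of 1.03 ± 0.15 (limma adjusted p = 0.0582). Actn2, an actinin of dendritic spines, had 512 and 388 there and 559 to 670 in the others, a slope of 0.98 ± 0.13 (limma adjusted p = 0.033). Libraries 1 and 8 were the lowest for all 4 genes. Without library 8 the adjusted p-values of the 3 genes rose to between 0.164 and 0.169, so these calls rested on that library.

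Most other striatal genes had positive slopes. Of the 18 other members of the list, the 3 called genes included, 17 had positive slopes and 15 had an unadjusted p-value under 0.05, against 6.90% of all genes, with a median slope of 0.74 against -0.005. Across 5860 genes the slopes on Ppp1r1b had a Spearman rho of 0.37 with GC content, given as a description, and the part of GC content was not tested. Adcy5, the adenylyl cyclase of striatal neurons, had 4900 and 4917 normalised counts in libraries 1 and 8 and 5229 to 7060 in the others. In the 30 libraries of the other groups, fitted with a term per group, 183 genes were called with Ppp1r1b (3.12%), and 13 of the same 18 members were among them with a median slope of 0.71. Rgs9, Actn2 and Penk were called there too, with slopes of 0.86, 0.74 and 1.23. The slope differed between saline sham and the other groups for 2 genes (0.0341%), Nsg2 and Mdm4 (limma adjusted p = 0.036 for both). Both were singled out after their values were seen. Within saline sham neither slope was called (limma adjusted p = 0.271 and 0.383). Without library 8 these adjusted p-values rose to 0.631 and 0.973.

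Of the 4 analysed thalamic genes, 3 were high in libraries 1 and 8, where striatal genes were low, which is given as a description with no test. Slc17a6, the vesicular glutamate transporter of thalamic neurons, had 1550 and 1485 normalised counts in libraries 1 and 8, 1299 and 1168 in libraries 6 and 10, and 530 to 872 in the other 6. Prkcd, a protein kinase C of thalamic relay neurons, had 1254 in library 1, 975 and 970 in libraries 6 and 8, and 270 to 668 in the other 7. Adarb1, an RNA-editing enzyme, had 6181 in library 1, 5696 in library 8 and 4254 to 5262 in the others. Plekhg1 had 2255 in library 1 and 758 to 1222 in the other 9, so library 8 did not stand apart for it. Libraries 1 and 8 thus were among the 3 highest for Slc17a6, Prkcd and Adarb1, while Slc17a6 was also high in libraries 6 and 10, where Ppp1r1b was not low. The summed level of the 4 analysed thalamic genes ran from 1050 to 2071 normalised counts per kilobase, and that of the 19 striatal genes from 18013 to 27348. The part of neighbouring tissue in the striatal slopes was not tested.

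Several myelin genes were lowest and highest in the same mice, which is given as a description with no test. Mbp had 19645 normalised counts in library 2, 29672 in library 7 and 22782 to 26290 in the other 8. Mag, the myelin-associated glycoprotein, had 1277 in library 2, 2562 in library 7 and 1612 to 2119 in the other 8. Mal, a membrane protein of compact myelin, had 3943 in library 2, 5926 in library 7 and 4209 to 4987 in the others. Library 2 was the lowest and library 7 the highest for each of these 3 genes, of which Mag and Mal were named after their values were seen. The ranking was not shared by every member. Cnp was also highest in library 7, at 5041, but lowest in library 5, at 4065, and Trf ran from 4734 in library 6 to 6141 in library 3. The CV was 17.9% for Mag and 7.2% for Cnp.

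No chaperone was called with Hspa5, the main chaperone of the endoplasmic reticulum. Hspa5 had 6536 normalised counts in library 4, 4580 in library 5 and 4949 to 5765 in the other 8. Hspa8, the constitutive cytosolic chaperone, had 37840 in library 4, 30500 in library 5 and 30994 to 35666 in the other 8, a slope of 0.60 ± 0.12 (limma adjusted p = 0.146). Manf, a stress-induced protein of the endoplasmic reticulum, had 751 in library 4, 557 in library 5 and 635 to 729 in the others. Library 4 was the highest and library 5 the lowest for each. Of 19 other chaperones 0 were called, 17 had positive slopes and 13 had an unadjusted p-value under 0.05, while 14.8% of all genes did so with this anchor, more than with any other of the 12. In the other 30 libraries 4 of the 19 were called.

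The 2 genes called with Hspa5 moved against it. Usp22, a deubiquitinase of the SAGA complex, had 3281 normalised counts in library 4 and 4335 in library 5, a slope of -0.80 ± 0.11. Sdc3, the neuronal heparan sulphate proteoglycan syndecan-3, had 1307 in library 4 and 2046 in library 5, a slope of -1.35 ± 0.19. Both had a limma adjusted p-value of 0.081, which rose to 0.46 and 0.397 without library 4. Across 5860 genes, the slopes on Hspa5 had a Spearman rho of -0.40 with GC content, given as a description, since genes are not independent. The same correlation with GC content was 0.42 for Csf1r, 0.37 for Ppp1r1b, 0.35 for Dbp and 0.27 for Gfap, so GC content moved with several anchors, and its part in the slopes was not tested.

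**Figure D5:**
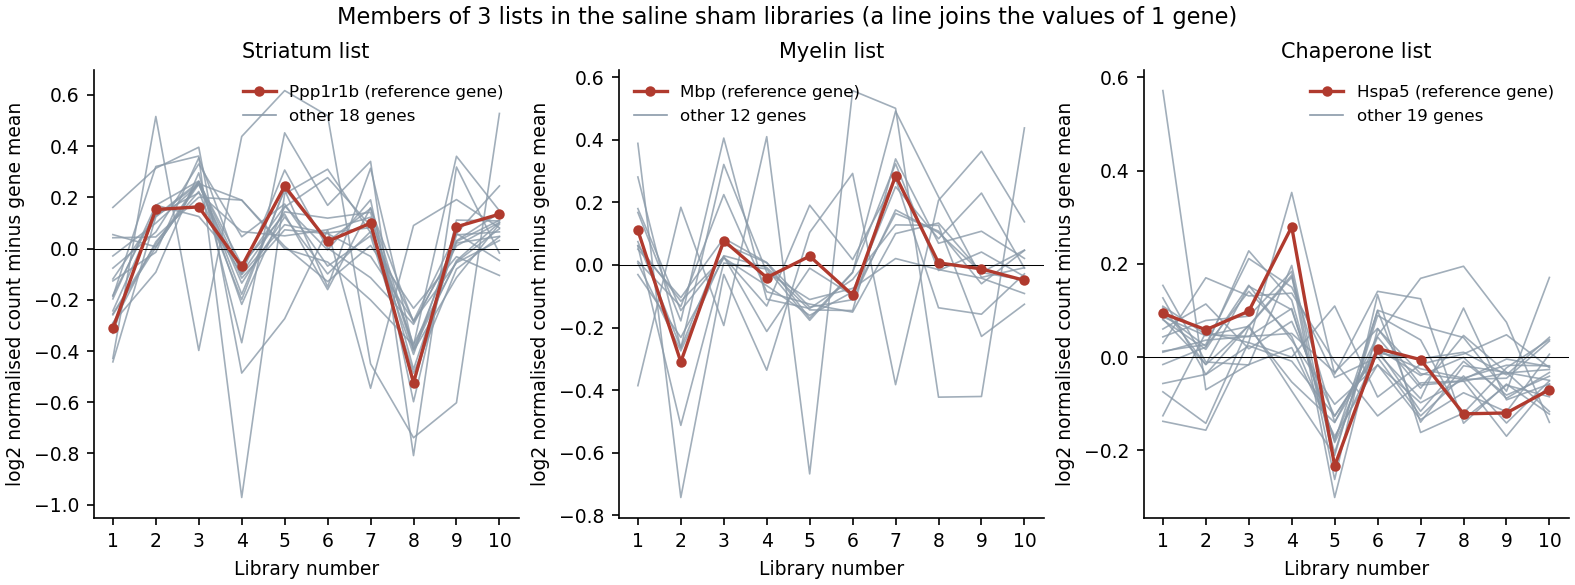
Log2 normalised count minus each gene's mean, by library number in saline sham, for a reference gene (thick line) and other members (thin lines) of the striatal, myelin and chaperone lists. Ppp1r1b, Rgs9 and Penk are lowest in libraries 1 and 8, Mbp is lowest in library 2 and highest in library 7, and Hspa5 and Hspa8 are highest in library 4 and lowest in library 5.

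The genes called with Junb were genes that separated libraries 1 to 5 from 6 to 10. Arc had a slope of 1.01 ± 0.15, Polr3e 0.47 ± 0.067 and Rasgef1b -0.51 ± 0.067 (limma adjusted p = 0.0658 for each). Irs2, an adaptor of insulin signalling, had 620 to 721 normalised counts in libraries 1 to 5 and 825 to 929 in libraries 6 to 10, a slope of 0.41 ± 0.065 (limma adjusted p = 0.0986). Without library 6, which had the highest Junb count of 828, the adjusted p-value of each of the 4 was 0.348. The libraries fell into 2 sets of 5 for Junb, and the relation within these sets was not tested. Of 12 other immediate early genes, Arc included, 7 had a positive slope and 5 an unadjusted p-value under 0.05, against 7.75% of all genes, with a median slope of 0.05. In the other 30 libraries 75 genes were called with Junb (1.28%), among them 7 of the 12, with a median slope of 0.38. The slope differed between saline sham and the other groups for 37 genes (0.63%), of which only Rasgef1b was called within saline sham. The slope of Rasgef1b was -0.51 against -0.11 (limma adjusted p = 0.0412). For Arc no difference was called (1.01 against 1.14, limma adjusted p = 0.909).

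The remaining anchors named single genes rather than groups. Kcmf1, a ubiquitin ligase, followed Cux2, a transcription factor of upper-layer neurons, with a slope of 0.11 ± 0.0091 (limma adjusted p = 0.00099). Cux2 was listed at 0 in libraries 4 and 9, where Kcmf1 had 367 and 412 normalised counts against 710 to 943 in the other 8, so the slope rested on these 2 libraries, and leaving out 1 of them keeps the other. On ranks within each gene no gene was called with any anchor. None of the 10 other upper-layer genes had an unadjusted p-value under 0.05 with Cux2, against 2.25% of all genes. C1ql3, a secreted synaptic protein, followed Hmgcs1, an early enzyme of cholesterol synthesis, with a slope of 2.51 ± 0.29 (limma adjusted p = 0.0247, rising to 0.107 without library 4). C1ql3 had 2047 and 2290 normalised counts in libraries 7 and 3, where Hmgcs1 was lowest at 4751 and 4719, and 3298 and 3264 in libraries 4 and 2, where Hmgcs1 had 5430 and 5644. Abca1, which exports cholesterol, moved against Hmgcs1 with a slope of -1.65 ± 0.23 (limma adjusted p = 0.0683), a call lost without any 1 library (0.12 to 0.462). Abca1 had 2384 in library 7 and 1760 in library 2. Of the 15 other genes of cholesterol synthesis, 8 had a positive slope on Hmgcs1 and 5 had an unadjusted p-value under 0.05, 2 of them positive, against 7.27% of all genes.

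Among markers of interneurons and astrocytes, Gad1 and Gfap each had calls that were lost when a library was left out. With Gad1 the called genes were Iffo2 (slope 2.25 ± 0.34), Pamr1 (-1.97 ± 0.28), Oxr1 (-1.28 ± 0.20), which protects against oxidative stress, and the phosphatase Ppm1h (-1.41 ± 0.22), each with a limma adjusted p of 0.0969. Without any 1 library their adjusted p-values were over the threshold, from 0.101 up to 0.399 without library 10. The slope of Iffo2 differed from that in the other groups (-0.38, limma adjusted p = 0.0144). Caln1, a neuronal calcium-binding protein, moved against Gfap with a slope of -2.12 ± 0.25 (limma adjusted p = 0.0297, 0.252 without library 8). Of 9 other interneuron genes 6 had positive slopes on Gad1 and 5 an unadjusted p-value under 0.05, 4 of them positive, against 8.09% of all genes. Of 21 other astrocyte genes 17 had positive slopes on Gfap and 5 an unadjusted p-value under 0.05, against 5.74% of all genes.

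The last 4 anchors had no called gene in saline sham by limma. Of 18 other clock genes 11 had positive slopes on Dbp, a clock-controlled transcription factor, and 5 had an unadjusted p-value under 0.05, 4 of them positive, against 9.09% of all genes. The 3 nearest genes to Dbp included the clock gene Per1, at a slope of 1.96 ± 0.38 (limma adjusted p = 0.441). Of 6 other microglial genes 5 had positive slopes on Csf1r, the receptor for colony-stimulating factor, and none had an unadjusted p-value under 0.05, against 7.87% of all genes. Of 7 other endothelial and mural genes 6 had positive slopes on Flt1, a VEGF receptor, and 3 an unadjusted p-value under 0.05, 2 of them positive, against 9.08% of all genes. Of 76 other ribosomal protein genes 57 had positive slopes on Rps16, with a median of 0.13, and 7 had an unadjusted p-value under 0.05, against 3.58% of all genes. The ribosomal protein gene Rps27 was at 5.75, 4.96 and 6.01 normalised counts in libraries 1, 2 and 10 and at 1561 to 1821 in the other 7.

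The anchors themselves were not shown to be related to each other. Of 66 pairs none had an adjusted p-value under 0.1 by Pearson's r or Spearman's rho (permutation test, Benjamini-Hochberg over the pairs), and 9 had an unadjusted p-value of r under 0.05. For Dbp and Gad1, r was 0.78 (two-sided permutation p = 0.013, adjusted p = 0.286) and rho was 0.68 (permutation p = 0.0342, adjusted p = 0.452). Without libraries 3 and 8, r of this pair was 0.73.

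The spread between mice in saline sham was compared with that in the other groups for every gene. The spread was the mean absolute deviation of log2 counts from the group mean, and its median over genes was 0.078 in saline sham and 0.076 in the others. It differed for 26 of 5873 genes (0.443%, limma, adjusted p under 0.1), of which 21 had the larger spread in saline sham and 5 the smaller. The count was 1 with deviations from the group median, so most of these calls depended on the measure. With the same measure it was 13 when only the more abundant genes were tested. Eif4e, listed at 0 in libraries 7 and 8, had a spread of 3.72 against 0.089 (limma adjusted p = 0.00043). Rasgef1b, which separated libraries 1 to 5 from 6 to 10, had 0.27 against 0.11 (limma adjusted p = 0.0011). Sypl, a synaptophysin-like vesicle protein, had 0.53 against 0.16 (limma adjusted p = 0.0214), with 215 and 210 normalised counts in libraries 5 and 10 and 578 to 752 in the others.

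The smaller spreads included a glutamate receptor. Gria2, the AMPA receptor subunit that limits calcium entry, was between 21006 and 22979 normalised counts in all 10 saline sham libraries, a spread of 0.034 against 0.19 in the other groups (limma adjusted p = 0.0483). Mbd5, a methyl-CpG-binding domain protein, had 0.054 against 0.22 (limma adjusted p = 0.0587), and Cep250, a centrosomal protein, had 0.70 against 2.76 (limma adjusted p = 0.0671). The other 2, outside the rule for naming, were Klc2 and 4930402H24Rik. Without 1 saline sham library, the largest adjusted p-value was 0.0856 for Gria2, 0.103 for Mbd5 and 0.111 for Cep250. It was 0.0092 for Rasgef1b and 0.548 for Sypl. No library of the other groups was left out. For Gria2, Mbd5 and Cep250, whose larger spread lay in those groups, this check cannot tell whether single libraries carried the difference.

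The first principal component of the 10 libraries set library 6 apart from the other 9. The first 3 components of the centred log2 counts held 18.9%, 15.5% and 14.3% of the variance. On the first, library 6 had a score of 25.7 and the other 9 had -7.59 to -0.17. Its low end was led by Kctd12, Otud7b and Gnb4, each listed at 0 in library 6, and included Mcc and Asap1, which had 46.4 and 149 normalised counts in library 6 and at least 565 and 1767 elsewhere. Its high end included Fbxo41, Rps27, Abhd13, Eif4enif1 and Eif4e. On the second, library 2 had the highest score, 16.2, and library 7 the lowest, -13.2, with Atp6v0c, Eif4e and Cux2 at the high end and Fbxo41, Rps27, Ttr and Atp6v0c-ps2 at the low end. With every gene scaled to the same variance and genes under 100 in a library left out, a choice made after seeing the data, the first component held 21.2%. It then separated libraries 1 and 4 (-55.1 and -45.4) from library 5 (70.0), and the weights had a Spearman rho of 0.57 with GC content across genes. GC content thus moved with this component, and its part was not tested.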

How the data were processed

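The authors sequenced stranded, ribosomal RNA-depleted libraries from cortex of 40 mice, with paired reads of 100 bases. The study's methods give STAR alignment to mm10 and eXpress counts per transcript, with RefSeq identifiers in the deposited table, whereas the submitters' processing notes name HISAT2 and StringTie. The deposited values are DESeq2 variance-stabilised values by the authors, on a log2 scale at high counts. The transformation was inverted with its floor of 10.36. In every library, 100% of values under 5000 were then whole multiples of 1 over the size factor (within 0.1 of a read), and 92.1% to 92.6% of saline sham values were under 5000. Because the deposited unit is log2, no count model was used. Transcripts were summed by RefSeq symbol (99.7% had one), lengths came from GENCODE release 21, and tests used log2(count + 1). All 40 columns were mapped by label.

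Slopes on anchor genes, their differences from the other groups and the spread were tested in R 4.3.3 with limma 3.58.1 and its trended prior, with a threshold of 0.1 after Benjamini-Hochberg adjustment. The anchor was entered centred, in log2 units. Correlations had permutation tests of 100000 resamples. On simulated data with 200 of 5807 genes changed, 89.0% of slopes of 0.5 and 97.0% of slopes of 1 were recovered in 10 libraries. The simulated anchor was drawn with an SD of 0.5 log2 units and had no counting error. Hspa5 and Ppp1r1b varied less than this between mice, as did Gfap and Hmgcs1. So did Csf1r, Flt1 and Gad1, in whose lists the highest CVs were 14.2%, 15.3% and 15.4%. The simulated noise was also independent between genes. These shares therefore do not tell how many slopes were missed with the real anchors. For spreads raised 3-fold, 77.0% were recovered, with 12% of calls false, above the threshold.

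Members and lists were chosen with earlier results of these data known. The rule for naming took the 20 highest genes per kilobase, the 20 most and 10 least variable of the more abundant genes, the anchors with the 3 nearest genes in each direction, the 3 largest differences of spread per direction, the 8 leading genes at each end of 2 components, and up to 4 members per list. A few genes picked by this rule are left out and not reported here. Genes of the division by library number were named after their values were seen. Nothing shows whether a library is 1 animal beyond its label, so p-values measure the spread between labelled samples. Alternatives were single transcripts, other normalisations, ranks, filters and leaving out libraries.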

Additional observations from a re-analysis of the deposited data

Results flagged for a closer look

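In 11 of 153 named genes, 1 saline sham library stood apart from the other 9 by Dixon's criterion, which chance alone meets in about 1 of 20 groups. Some of these genes were named for their large variation or component weights, so their number cannot be set against that rate. Of the 11 genes, 5 stood apart in library 6, where Kctd12 and Otud7b were listed at 0 and Meg3 was high at 73209. Mcc had 46.4 and Asap1 149 normalised counts there. Kctd12, Otud7b, Mcc and Asap1 were named from the first component, which set library 6 apart. In library 7, Atp6v0c had 38.6 and its pseudogene Atp6v0c-ps2 had 4422. Abhd13 had 0.993 in library 2, Vps26b 2267 in library 4, Plxnd1 2923 in library 5 and Fth1 11588 in library 9.

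The slope on an anchor differed between saline sham and the other groups, by limma with an adjusted p under 0.1, for 37 genes with Junb and 6 with Flt1. It differed for 2 genes with Ppp1r1b (Nsg2 and Mdm4). It differed for 1 gene each with Gfap (Eif4e), Csf1r (Arhgef2), Gad1 (Iffo2), Hspa5 (Rgs4) and Cux2 (Snrpn). With Flt1 the 6 genes were St6gal2, Rasgef1b, Rasgrp1, Tmem130, Flrt2 and Hap1. None of these 6 was called within saline sham (limma adjusted p from 0.106 to 0.36), and of the 37 with Junb only Rasgef1b was. The slope of Arhgef2 on Csf1r was 2.54 ± 0.44 in saline sham and 0.14 ± 0.20 in the others. That of Rgs4 on Hspa5 was 0.76 ± 0.20 and -0.23 ± 0.087. Neither slope was called within saline sham (limma adjusted p = 0.486 and 0.175). The adjusted p-value rose to 0.998 for Arhgef2 without library 5 and to 0.46 for Rgs4 without library 4. Eif4e was listed at 0 in libraries 7 and 8, where Gfap had its highest normalised counts of 1654 and 1602, against 1034 to 1375 in the other 8. The spread between mice differed from that in the other groups for 26 genes.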

How the results depend on the processing

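The count of genes called with the 12 anchors was 17. It was 11 on the deposited values of single transcripts and 0 on ranks within each gene, and 4 to 21 when 1 library was left out (4 without library 8, 10 without library 1 or 6). The other alternatives gave 15 to 23. The count of genes with a different spread was 26, and it was 1 with deviations from the group median and 13 in the more abundant genes only. That count was 14 to 51 when 1 saline sham library was left out (51 without library 2, 45 without library 9, 40 without library 8, 17, 15 and 14 without libraries 3, 4 and 5). Of the 20 most abundant genes, 7 remained without division by length and 20 when any 1 library was left out. The count of genes with a CV over 20% was 94, with 442 over single transcripts, 434 over all genes and 87 to 98 when 1 library was left out. Of the 20 most variable genes, 4 remained with single transcripts, 5 over all genes, 3 by the SD of the deposited values and 16 to 19 when 1 library was left out. The cause of these changes was not tested. Whether library numbers pair the groups was not settled by a correlation of deviations across genes. Of 60 same-numbered pairs 14 had a correlation of deviations over 0.1, in a range of -0.39 to 0.53, and 2 of 10 saline sham libraries were nearest to their own number. With the replicate block, 27 genes had a different spread and 46 rather than 50 slopes differed from the other groups. No anchor pair passed under either alternative. At this depth, counting error alone gave a median CV of 1.96% in the more abundant genes.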
